A study of Mus musculus with 27 samples.

Results

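The 10 germline and meiosis genes Dazl, Ddx4, Mael, Stk31, Slc25a31, Smc1b, Stag3, Hormad1, Sycp1 and Sycp3 were followed through the RNA-seq libraries of J1 mESCs, a feeder-free mouse embryonic stem cell line of 129 background. They were chosen by symbol, as genes with known work in germ cells or in meiosis, and make up 10 of the 27080 genes listed in the count tables. The choice was made with earlier results of these data known. The shares of all genes given below are therefore for scale and are no test of enrichment. Gas41, encoded by Yeats4, is a reader of histone acetylation shared by the complexes that deposit the histone variant H2A.Z, and the study depleted it to ask which genes it keeps in check in mESCs. The shNT group (3 libraries) carried a control shRNA. The shGas41-1 group (3 libraries) and the shGas41-2 group (2 libraries) carried lentiviral shRNAs against Gas41, were selected with puromycin and were harvested 8 days after infection. All of these cells grew on gelatin with LIF. In the embryoid body (EB) series, cells with the control shRNA were kept undifferentiated with LIF (EB day 0, 2 libraries) or aggregated without LIF for 6 days (EB day 6, 2 libraries). Each group is a selected pool of 1 cell line, and the methods of the study speak of biological repeats for its experiments in general. Neither they nor the labels say which RNA-seq libraries came from separate cultures, so that p-values measure only the spread between these libraries, which may be technical.

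In germ cells these genes serve successive tasks. Dazl, Ddx4, Mael and Stk31 encode proteins that handle RNA or belong to the germ granules in which piRNAs are made against transposons. Smc1b and Stag3 encode meiotic subunits of cohesin, and Hormad1, Sycp1 and Sycp3 build the chromosome axis and the synaptonemal complex that holds paired homologues together, while Slc25a31 encodes an ADP/ATP carrier of germ cell mitochondria. In somatic cells genes of this kind are kept silent by promoter DNA methylation, and in mESCs also by a variant Polycomb complex, PRC1.6, whose Mga and E2f6 subunits recognise E-box and E2F sites.

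Because several of these genes moved together, their promoters are shown first. RefSeq promoter windows (build GRCm38.p6) of 300 bases, from 250 bases before to 50 after the start site, were found for all 10 genes, and the upstream 250 bases of each matched a single place on their chromosome in mm9, the build of the count tables. The stretches below belong to the 5 genes that were called with both shRNAs (Mael, Smc1b, Stk31, Slc25a31 and Dazl) and to Sycp3, the gene among the 5 called with neither whose KD and shNT levels overlapped, and are written 5′ to 3′ on the strand of the gene, ending at the base before the RefSeq start. Capitals mark the E-box CACGTG, which reads the same on both strands, and the E2F-like motif TCCCGC or its reverse complement GCGGGA. The letters come from the reference genome, which is not that of the 129 background.
Mael: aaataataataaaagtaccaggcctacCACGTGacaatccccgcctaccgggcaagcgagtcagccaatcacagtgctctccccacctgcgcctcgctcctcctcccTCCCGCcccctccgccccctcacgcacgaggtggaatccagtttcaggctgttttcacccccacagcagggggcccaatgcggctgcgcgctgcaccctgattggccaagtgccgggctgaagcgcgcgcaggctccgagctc
Smc1b: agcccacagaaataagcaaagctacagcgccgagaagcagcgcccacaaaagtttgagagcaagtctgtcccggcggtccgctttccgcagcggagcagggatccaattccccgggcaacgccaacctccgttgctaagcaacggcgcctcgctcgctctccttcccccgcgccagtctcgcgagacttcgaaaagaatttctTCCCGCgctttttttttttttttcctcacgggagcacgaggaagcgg
Stk31: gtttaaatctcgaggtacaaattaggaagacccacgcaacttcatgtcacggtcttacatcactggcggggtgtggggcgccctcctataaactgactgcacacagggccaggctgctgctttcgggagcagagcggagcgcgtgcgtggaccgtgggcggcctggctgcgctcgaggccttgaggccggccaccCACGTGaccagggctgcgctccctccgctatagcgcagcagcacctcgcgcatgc
Slc25a31: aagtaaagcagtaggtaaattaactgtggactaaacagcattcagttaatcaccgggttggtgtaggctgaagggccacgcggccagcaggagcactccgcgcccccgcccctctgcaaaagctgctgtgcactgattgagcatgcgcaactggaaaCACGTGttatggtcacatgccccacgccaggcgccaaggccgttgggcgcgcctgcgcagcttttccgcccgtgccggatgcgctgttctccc
Dazl: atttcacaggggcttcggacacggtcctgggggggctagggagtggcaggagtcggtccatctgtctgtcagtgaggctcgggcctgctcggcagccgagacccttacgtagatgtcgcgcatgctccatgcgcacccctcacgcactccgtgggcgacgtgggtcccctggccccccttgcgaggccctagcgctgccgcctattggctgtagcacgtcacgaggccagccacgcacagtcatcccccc
Sycp3: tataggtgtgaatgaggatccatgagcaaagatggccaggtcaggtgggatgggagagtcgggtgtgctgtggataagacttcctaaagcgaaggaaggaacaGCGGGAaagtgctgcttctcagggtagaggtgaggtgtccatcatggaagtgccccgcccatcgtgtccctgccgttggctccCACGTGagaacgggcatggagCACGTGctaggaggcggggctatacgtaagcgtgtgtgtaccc

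In mm9 these stretches lie on the minus strand at chr1:168168876-168169125 for Mael, at chr15:84962388-84962637 for Smc1b and at chr17:50432946-50433195 for Dazl. On the plus strand they lie at chr6:49345288-49345537 for Stk31, at chr3:40512543-40512792 for Slc25a31 and at chr10:87922082-87922331 for Sycp3. The RefSeq starts were between 0 and 65 bases from the 5′ end of the gene in the GENCODE annotation of mm9 for these 6 genes. The stretches thus cover the sequence just upstream of each annotated gene, and in Sycp3 and Slc25a31 also the first bases of its first exon. Stk31 and Hormad1 had a second window that overlapped the first, and the first was used.

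The E-box was present in the windows of 8 of the 10 genes, all but Dazl and Smc1b, and in 7.15% of the 32851 RefSeq promoter windows of the mouse. The E2F-like motif was also present in 8 of the 10, all but Dazl and Stk31, and in 20.0% of all windows. Both were found in 7 of the 10 genes and in 1.99% of all windows. The windows of the 10 genes held between 15 and 38 CpG dinucleotides, against a median of 7 over all windows, so that the shares were also taken over the 11378 windows with at least 15 CpG. There the E-box was in 11.3%, the E2F-like motif in 45.4% and both in 5.04% of windows. Both motifs were present in 2 of the 5 genes called with both shRNAs, Mael and Slc25a31, and in all 5 genes called with neither, namely Ddx4, Stag3, Hormad1, Sycp1 and Sycp3. Dazl, which was called, carried neither of these letter strings. These matches are a description of the letters, and the binding of any factor was not measured here.

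**Figure D1:**
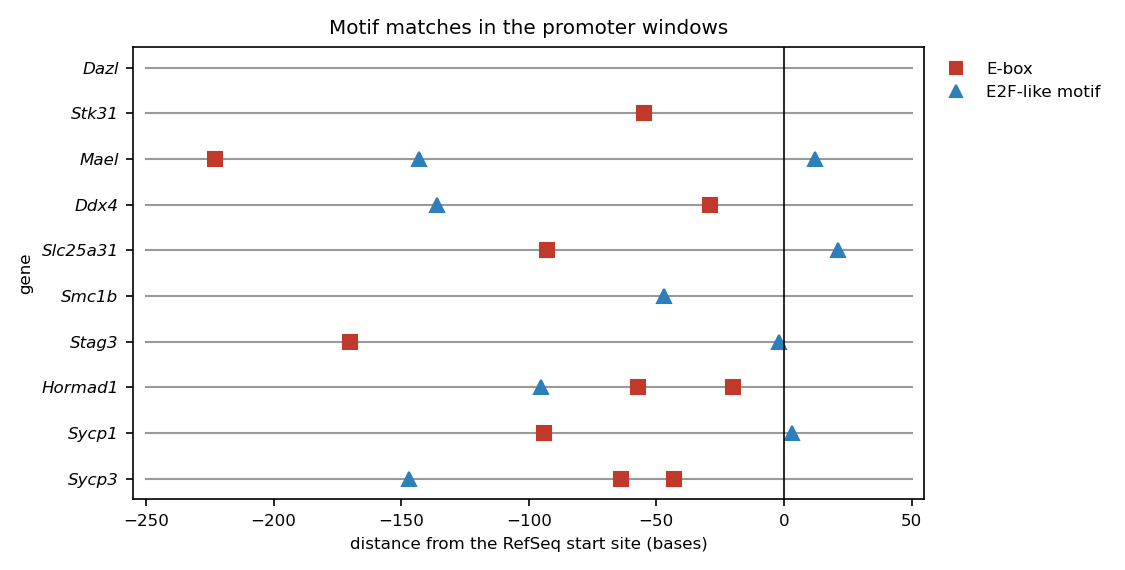
Positions of the E-box (squares) and the E2F-like motif (triangles) in the 300-base RefSeq promoter window of each gene, plotted as the distance in bases of the first base of the match from the start site (vertical line, upstream to the left). Of the 10 windows, 8 hold an E-box, 8 hold the E2F-like motif, 7 hold both and that of Dazl holds neither.

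The libraries held between 59224537 and 81524773 counts, at which 3 counts, taken as the smallest measurable amount, correspond to 0.0368 to 0.0507 CPM (counts per 1000000, with library totals adjusted below by TMM factors of 0.941 to 1.05). Such floors cover counting error only. Yeats4 was at 50.9 to 61.2 CPM in shNT, at 3.46 to 5.09 CPM with shGas41-1 and at 7.95 to 8.80 CPM with shGas41-2, in accord with the labels. The summed level of 12 pluripotency genes was 5614 to 7023 CPM over the shNT, KD and EB day 0 libraries and 1424 to 1799 CPM at EB day 6. The shNT 1 library stood apart in the summed level of 9 markers of 2-cell-like cells, the rare mESCs that express genes of the 2-cell embryo. It was at 273 CPM, against 50.7 and 33.3 CPM in shNT 2 and 3, and the tests against shNT were therefore repeated without it, with values given after those of the single genes and of the gene lists. None of the 10 genes shared a 50-base stretch of its protein-coding transcripts with those of another gene. Transcripts that code for no protein were not searched. The exons of Sycp3, however, overlap those of Chpt1 on the opposite strand, and the library kit does not mark strand.

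To compare levels between genes, CPM was divided by exon length (RPKM). In shNT, the helicase gene Ddx4 was at 6.40 ± 0.44 RPKM (SD, n = 3), the cohesin gene Stag3 at 5.28 ± 1.00, Stk31 at 2.81 ± 0.67, Mael at 2.35 ± 0.68 and Dazl at 1.68 ± 0.48. The other 5 genes were below 1 RPKM, namely Hormad1 at 0.887 ± 0.234, Smc1b at 0.794 ± 0.131, Slc25a31 at 0.652 ± 0.164, Sycp3 at 0.550 ± 0.156 and Sycp1 at 0.314 ± 0.063. The ranges of mean ± SD overlapped between Ddx4 and Stag3, among Stk31, Mael and Dazl, and among Hormad1, Smc1b, Slc25a31 and Sycp3. Genes within each of these sets were thus not ordered beyond their spread. Germline transcripts were thus measurable in the control mESCs and of middling rank, since between 36.9% (Sycp1) and 70.5% (Ddx4) of the 23649 genes with a count in shNT had a lower RPKM. With shGas41-1, Mael reached 10.2 ± 2.2 RPKM, beside Ddx4 at 10.9 ± 1.5 and Stag3 at 9.58 ± 1.55, while Sycp1 at 0.565 ± 0.121 and Sycp3 at 0.584 ± 0.228 were the lowest.

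Each Gas41 KD was compared with shNT to ask which of the genes changed when Gas41 was depleted. With shGas41-1, Mael, Smc1b, Stk31, Dazl and Slc25a31 rose, and none of the 10 genes fell. The same 5 genes rose with shGas41-2 and none fell. A gene was called when it changed at least 2-fold at a maximum FDR of 0.05, from the quasi-likelihood test of edgeR with Benjamini-Hochberg adjustment over all genes tested. All 10 genes passed the filter on low counts in every comparison. The 5 of 10 called up compare with 7.90% of 18274 genes with shGas41-1 and 3.96% of 18405 genes with shGas41-2, and 2.40% and 0.869% of genes were called down. Of 18049 genes tested with both shRNAs, 3.55% were called up with both, as were these 5 genes. By the FDR alone, 9 of the 10 genes were higher with shGas41-1, against 10.8% of all genes, and 6 of 10 with shGas41-2, against 5.94%. The median log2 fold change of the 10 genes was 1.17 with shGas41-1 and 0.98 with shGas41-2, beside medians of 0.02 and -0.01 over all genes tested. The KDs were compared with the same shNT libraries, so that their values are not independent of each other.

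**Figure D2:**
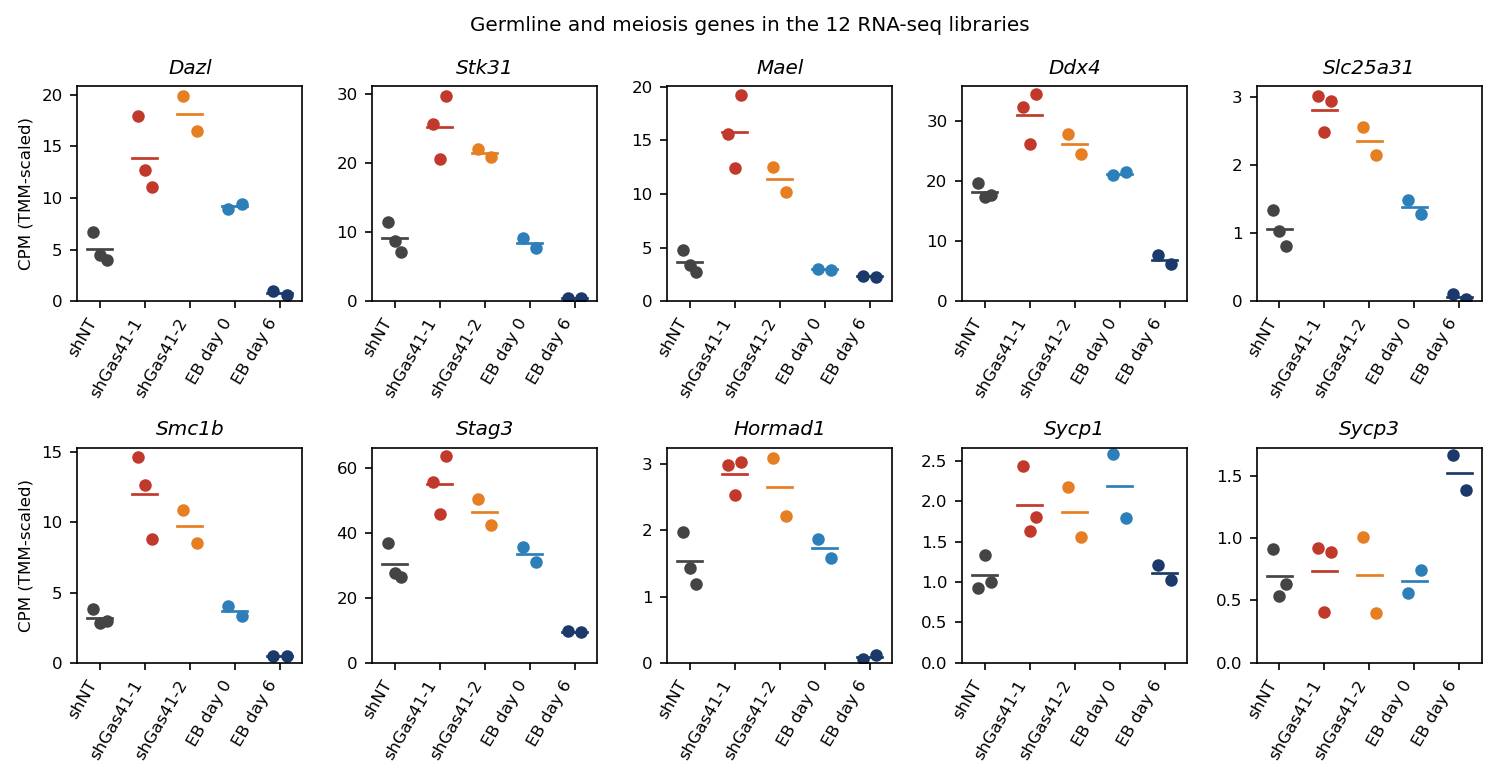
Level of each gene (CPM, linear axis from 0) in the 12 RNA-seq libraries, with a point for each library and a horizontal line at the group mean. For every gene but Sycp3, all KD libraries sit above all shNT libraries and both EB day 6 libraries sit below both EB day 0 libraries. Of all genes tested, 20.9% (shGas41-1) and 23.2% (shGas41-2) showed the first order and 40.0% the second.

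Among the genes that act on RNA, Mael had the largest log2 fold change with shGas41-1 and Dazl with shGas41-2. Mael, whose product is needed for piRNA-directed silencing of transposons, was at 4.78, 3.41 and 2.70 CPM in the 3 shNT libraries. It was at 15.6, 12.4 and 19.2 CPM with shGas41-1 and at 12.5 and 10.2 CPM with shGas41-2. The groups did not overlap, and the lowest KD library was more than 2-fold above the highest shNT library. Its log2 fold change was 2.14 (SE 0.26, FDR = 0.00267) with shGas41-1 and 1.66 (SE 0.23, FDR = 0.00663) with shGas41-2. Mael is thus the gene with the largest rise with shGas41-1 among the 10, a 4.40-fold change.

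Dazl encodes an RNA-binding protein that controls translation in germ cells. It was at 6.72, 4.48 and 3.99 CPM in shNT, at 17.9, 12.7 and 11.1 CPM with shGas41-1 and at 19.9 and 16.4 CPM with shGas41-2. Every KD library lay above every shNT library, and the log2 fold change was 1.47 (SE 0.25, FDR = 0.00684) with shGas41-1 and 1.85 (SE 0.22, FDR = 0.00344) with shGas41-2. Dazl was the only gene of the 10 whose level was on average higher with shGas41-2 than with shGas41-1, a difference that did not pass the test. It was also at 8.97 and 9.39 CPM in the undifferentiated EB day 0 libraries, above the 3 shNT libraries and below the KD libraries. Both EB day 0 libraries lay above all 3 shNT libraries in 3 of the 10 genes, Dazl, Ddx4 and Sycp1, and below all of them in none. In 8 of the 10 genes, all but Sycp1 and Sycp3, they lay below all 5 KD libraries. The share of all genes with such gaps was not taken, so that these counts describe the 10 genes and do not show that the gaps are unusual. The cause of these gaps between both sets of control cells was not tested.

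Stk31, which encodes a germ cell protein with a kinase and a Tudor domain, was at 11.4, 8.70 and 7.18 CPM in shNT. It was at 25.7, 20.6 and 29.7 CPM with shGas41-1 and at 22.0 and 20.9 CPM with shGas41-2, so that the groups did not overlap. Stk31 had a log2 fold change of 1.50 (SE 0.22, FDR = 0.00359) with shGas41-1 and 1.24 (SE 0.19, FDR = 0.00862) with shGas41-2. Ddx4, the mouse homologue of Vasa and a standard marker of germ cells, was at 19.7, 17.3 and 17.7 CPM in shNT, at 32.3, 26.1 and 34.4 CPM with shGas41-1 and at 27.7 and 24.5 CPM with shGas41-2. Its groups did not overlap either, but its change was smaller. The log2 fold change of 0.78 (SE 0.15, FDR = 0.00987) with shGas41-1 and 0.53 (SE 0.12, FDR = 0.0320) with shGas41-2 passed the FDR and not the 2-fold threshold.

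Slc25a31, whose carrier exchanges ADP and ATP across the mitochondrial membrane of spermatocytes, was at 1.34, 1.03 and 0.810 CPM in shNT. It was at 3.01, 2.48 and 2.94 CPM with shGas41-1 and at 2.56 and 2.15 CPM with shGas41-2. All 5 KD libraries lay above the shNT libraries, with a log2 fold change of 1.43 (SE 0.24, FDR = 0.00624) for shGas41-1 and 1.16 (SE 0.26, FDR = 0.0319) for shGas41-2. The call with shGas41-2 was the least firm of the 5, since it was lost without either shGas41-2 library (FDR = 0.202 without replicate 1 and 0.122 without replicate 2) and without shNT 2 (FDR = 0.105).

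The meiotic cohesin genes differed in the size of their response. Smc1b, which encodes the meiotic SMC1 subunit, was at 3.81, 2.82 and 3.00 CPM in shNT, at 14.6, 12.7 and 8.85 CPM with shGas41-1 and at 10.9 and 8.57 CPM with shGas41-2. Smc1b had a log2 fold change of 1.93 (SE 0.22, FDR = 0.00251) with shGas41-1 and 1.61 (SE 0.18, FDR = 0.00277) with shGas41-2, and the groups did not overlap. Stag3, which encodes the cohesin subunit that binds beside it, was the most abundant of the 10 in CPM. It was at 36.8, 27.6 and 26.4 CPM in shNT, at 55.5, 45.8 and 63.5 CPM with shGas41-1 and at 50.2 and 42.3 CPM with shGas41-2. Its groups did not overlap, yet it was not called with either shRNA. The log2 fold change was 0.88 (SE 0.18, FDR = 0.0138) with shGas41-1 and 0.62 (SE 0.16, FDR = 0.0533) with shGas41-2.

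The genes of the chromosome axis and synaptonemal complex were not called with either shRNA. Hormad1, whose product binds unsynapsed axes, was at 1.98, 1.44 and 1.19 CPM in shNT, at 2.99, 2.53 and 3.02 CPM with shGas41-1 and at 3.10 and 2.21 CPM with shGas41-2. Its log2 fold change was 0.91 (SE 0.24, FDR = 0.0308) with shGas41-1 and 0.80 (SE 0.27, FDR = 0.100) with shGas41-2. Sycp1, the transverse filament gene, was at 0.932, 1.34 and 0.999 CPM in shNT, at 2.43, 1.63 and 1.81 CPM with shGas41-1 and at 2.18 and 1.56 CPM with shGas41-2. In both genes every KD library was above every shNT library. For Sycp1, however, the undifferentiated EB day 0 libraries, at 2.58 and 1.79 CPM, were also above every shNT library and reached the levels of the KD libraries. The log2 fold change of Sycp1 was 0.86 (SE 0.25, FDR = 0.0425) with shGas41-1 and 0.78 (SE 0.26, FDR = 0.0937) with shGas41-2.

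Sycp3, the gene of the axial elements, was the exception among the 10. It was at 0.916, 0.535 and 0.634 CPM in shNT, at 0.921, 0.405 and 0.887 CPM with shGas41-1 and at 1.01 and 0.401 CPM with shGas41-2, and the groups overlapped. Behind these levels stood 31 to 81 counts a library. The log2 fold change was 0.10 (95% interval -0.74 to 0.95, FDR = 0.865) with shGas41-1 and 0.03 (95% interval -0.96 to 1.03, FDR = 0.969) with shGas41-2, intervals that leave room for changes of about 2-fold in either direction. The sign of these small values also turned when single libraries were left out and, with shGas41-2, when scaling was by library size alone. Chpt1, the choline phosphotransferase gene that overlaps Sycp3 on the other strand, was at 33.1 to 41.4 CPM in shNT and rose to 97.6 to 164 CPM with shGas41-1 and 118 to 138 CPM with shGas41-2. Its log2 fold change was 1.75 (FDR = 0.00267) and 1.76 (FDR = 0.00145), so that Sycp3 was not called beside a neighbour that was.

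Every KD library lay above every shNT library for 9 of the 10 genes with either shRNA. Over all genes tested, this held for 20.9% with shGas41-1 and 23.2% with shGas41-2. The summed level of the 10 genes was 64.6 to 88.4 CPM in shNT, 137 to 175 CPM with shGas41-1 and 129 to 152 CPM with shGas41-2. In bulk libraries such as these, more cells that express a gene and more RNA per cell cannot be told apart. The highest of the 3 shNT sums was that of shNT 1, the library with the raised 2-cell-like markers. Without it, 7 of the 10 genes were called with shGas41-1, adding Hormad1 (log2 fold change 1.14) and Stag3 (1.05), and 6 were called with shGas41-2, adding Hormad1 (1.03). The background of calls up was then 8.03% of 18803 genes and 6.41% of 18327 genes, and that of calls down 2.87% and 1.6%. Without shNT 1, the log2 fold change with shGas41-1 was 2.38 for Mael, 2.07 for Smc1b, 1.73 for Dazl, 1.69 for Stk31, 1.63 for Slc25a31, 0.84 for Ddx4, 0.76 for Sycp1 and 0.35 for Sycp3. With shGas41-2 it was 2.11 for Dazl, 1.91 for Mael, 1.76 for Smc1b, 1.45 for Stk31, 1.37 for Slc25a31, 0.79 for Stag3, 0.69 for Sycp1, 0.59 for Ddx4 and 0.28 for Sycp3. All of these but the values of Sycp1 were larger than with the library included. A rise of this kind was to be had in advance, because shNT 1 was the highest shNT library in all of the 10 genes but Sycp1. By the FDR alone, 8 of the 10 genes were higher with each shRNA, against 9.73% and 12.0% of all genes. Sycp1 no longer passed with shGas41-1 (FDR = 0.0984), while Stag3 (FDR = 0.000901) and Hormad1 (FDR = 0.0124) did with shGas41-2. The median of the 10 genes was then 1.38 and 1.20. Genes in which every KD library lay above all 3 shNT libraries necessarily stay so without shNT 1, so that the 9 of 10 genes add no check. Over all genes, the share was then 27.5% and 31.2%. The calls with shGas41-2 fell to 3, namely Mael, Smc1b and Dazl, when either of its 2 libraries was left out, a fit in which the lone library is assumed to vary like the others.

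Whether the shRNAs differed was tested directly over the 8 libraries. None of the 10 genes, and 0% of 19146 genes, was called between shGas41-1 and shGas41-2 by edgeR's quasi-likelihood test. At an unadjusted p under 0.05 there were 1348 genes and 0 of the 10, and DESeq2 called 39 genes higher and 32 lower with shGas41-1, none of them among the 10. The differences, shGas41-1 minus shGas41-2 on the log2 scale, ran from -0.37 for Dazl (95% interval -0.94 to 0.20) to 0.49 for Mael (95% interval -0.09 to 1.07), and were above 0 in 9 of the 10. The intervals do not show that the shRNAs acted alike. Yeats4 itself was at 7.93% of its shNT level with shGas41-1 and at 15.3% with shGas41-2.

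**Figure D3:**
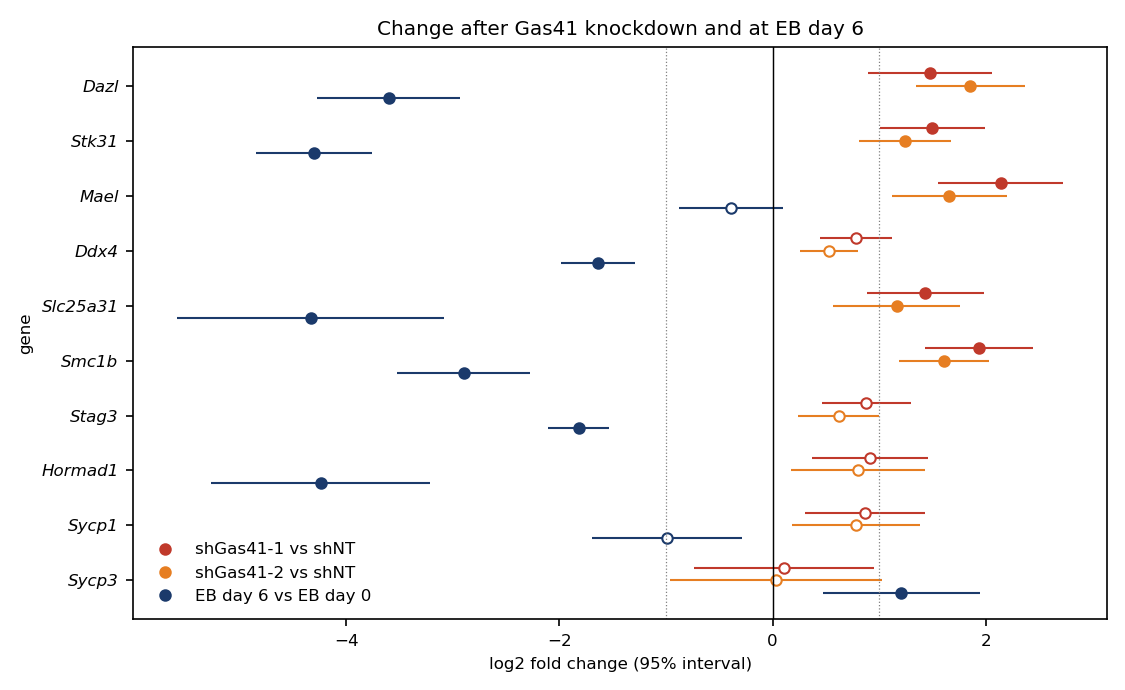
Log2 fold change of each gene (points) with its 95% interval (bars) with shGas41-1 against shNT (red), with shGas41-2 against shNT (orange) and at EB day 6 against EB day 0 (blue). Filled points were called at 2-fold (dotted lines) and an FDR of 0.05, and show 5 genes to the right of 0 with both shRNAs and 7 to the left of 0 at EB day 6, with Sycp3 called on the right at EB day 6.

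The EB series asked how the same genes behave when mESCs differentiate. At EB day 6, 7 of the 10 genes fell against EB day 0, namely Slc25a31, Stk31, Hormad1, Dazl, Smc1b, Stag3 and Ddx4, whereas Sycp3 rose and Mael and Sycp1 were not called. Over all 18287 genes tested, 14.7% were called down and 16.6% up. By the FDR alone, 8 of the 10 were lower, against 28.4% of all genes. Both day 6 libraries lay below both day 0 libraries in 9 of the 10 genes and in 40.0% of all genes. The median log2 fold change of the 10 genes was -2.36, beside -0.003 over all genes, and their summed level went from 81.4 to 88.3 CPM at day 0 to 21.9 to 24.8 CPM at day 6.

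The deepest falls left some genes near the limit of detection. Stk31 went from 9.10 and 7.77 CPM at day 0 to 0.454 and 0.411 CPM at day 6, a log2 fold change of -4.30 (SE 0.23, FDR = 2.58e-05). Slc25a31 went from 1.49 and 1.29 CPM to 0.106 and 0.030 CPM, which rest on 7 and 2 counts. Its summed level at day 6 was 4.90% of that at day 0 (exact 95% interval 2.21% to 9.50%, counting error only), and it was called with a log2 fold change of -4.33 (SE 0.52, FDR = 0.000639). Both genes were thus present in undifferentiated cells and close to lost at day 6. Hormad1 went from 1.87 and 1.58 CPM to 0.061 and 0.122 CPM, resting on 4 and 8 counts, or 5.25% of the day 0 level (exact 95% interval 2.68% to 9.34%, counting error only). Its log2 fold change was -4.24 (SE 0.43, FDR = 0.000299).

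Dazl went from 8.97 and 9.39 CPM at day 0 to 0.968 and 0.563 CPM at day 6 (log2 fold change -3.60, SE 0.28, FDR = 1.00e-04). Smc1b went from 4.06 and 3.32 CPM to 0.499 and 0.502 CPM (log2 fold change -2.90, SE 0.26, FDR = 0.000187). The more abundant Stag3 and Ddx4 kept more of their level. Stag3 went from 35.7 and 31.1 CPM to 9.81 and 9.39 CPM (log2 fold change -1.82, SE 0.12, FDR = 5.56e-05), and Ddx4 from 20.9 and 21.5 CPM to 7.64 and 6.23 CPM (log2 fold change -1.63, SE 0.14, FDR = 0.000173). In none of these genes did the day 0 and day 6 libraries overlap.

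The genes not called down were Sycp1, Mael and Sycp3. Sycp1 was at 2.58 and 1.79 CPM at day 0 and at 1.21 and 1.02 CPM at day 6, and its log2 fold change of -0.99 (SE 0.29, FDR = 0.0250) fell just short of 2-fold. Mael was at 3.03 and 2.94 CPM at day 0 and at 2.35 and 2.28 CPM at day 6, with a log2 fold change of -0.39 (95% interval -0.88 to 0.10, FDR = 0.144). Mael, which had the largest rise with shGas41-1, was therefore among the genes that moved least in the EB series. Sycp3 was at 0.562 and 0.742 CPM at day 0 and at 1.66 and 1.39 CPM at day 6, a log2 fold change of 1.20 (SE 0.31, FDR = 0.0145). This call was lost without either day 0 library (FDR = 0.0988 without replicate 2 and 0.0663 without replicate 3). Chpt1 was at 16.3 to 22.6 CPM at day 0 and at 19.7 to 19.9 CPM at day 6, with a log2 fold change of 0.003 (FDR = 0.988).

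**Figure D4:**
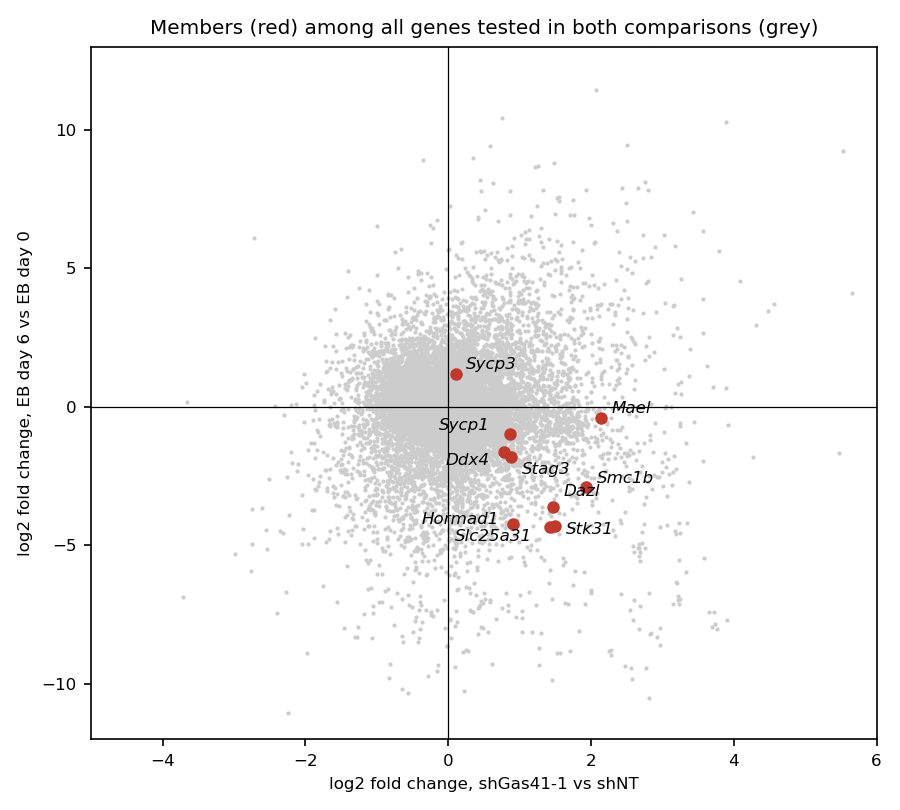
Log2 fold change with shGas41-1 against shNT (x axis) and at EB day 6 against EB day 0 (y axis) for 17510 genes tested in both comparisons (grey, of which 2 lie outside the axes) and for the 10 germline and meiosis genes (red). Of the 10 genes, 9 lie at the lower right, higher after KD and lower at EB day 6, and Sycp3 lies at the upper right.

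The responses to KD and to EB differentiation were compared in a single fit of the 12 libraries, as the mean change over the 2 shRNAs minus the change at EB day 6. The KD and EB comparisons share no library. The difference was called above 0 for 9 of the 10 genes, against 17.6% of 19684 genes, and was not called for Sycp3 (-1.17, 95% interval -2.44 to 0.10, FDR = 0.123). It was 5.64 (SE 0.32, FDR = 1.86e-07) for Stk31 on the log2 scale, 5.60 for Slc25a31, 5.23 for Dazl, 5.06 for Hormad1 and 4.64 for Smc1b. It was smaller for Stag3 at 2.53, Ddx4 at 2.25, Mael at 2.25 and Sycp1 at 1.78 (SE 0.38, FDR = 0.00222). Dazl, Slc25a31, Smc1b and Stk31 were called up with both shRNAs and down at EB day 6, a combination met by 4 of the 10 genes and by 0.964% of the 17426 genes tested in all 3 comparisons.

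Other genes of the same pathways were read from lists chosen by function. For scale, 7.90% of all genes tested were called up and 2.40% down with shGas41-1, and 3.96% and 0.869% with shGas41-2. At EB day 6, 16.6% were called up and 14.7% down. Among 11 tested genes of the meiotic axis, cohesin and synaptonemal complex outside the 10, 3 rose and 1 fell with shGas41-1, and 2 rose and 1 fell with shGas41-2. Syce3 and Tex12, which encode central element proteins, rose with both shRNAs, Syce3 by log2 fold changes of 1.87 and 1.41 and Tex12 by 1.21 and 1.59, and Spdya rose by 1.81 with shGas41-1. Rec8, the meiotic kleisin subunit of the cohesin that holds Smc1b and Stag3, went the other way. It fell by 1.56 (SE 0.18, FDR = 0.00265) on the log2 scale with shGas41-1 and by 1.18 (SE 0.18, FDR = 0.00925) with shGas41-2. The list had a median log2 fold change of 0.78 with shGas41-1 and 0.65 with shGas41-2. In the EB series 1 of its 12 tested genes was called up and 4 down.

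Of 15 tested meiotic recombination genes, the same 4 rose with each shRNA and none fell. They were Prdm9, the histone methyltransferase that places recombination hotspots, with log2 fold changes of 1.65 and 1.45, AI481877 (Shoc1) with 2.30 and 1.93, Spata22 with 1.61 and 1.41, and Ccdc36 (Iho1) with 1.26 and 1.07. The median of the list was 0.32 and 0.11, and at EB day 6 it had 1 gene up and 5 down. Of 16 other piRNA pathway genes, 2 rose with each shRNA and none fell, with medians of 0.17 and 0.22. The Tudor gene Tdrd7 rose with both (1.72 and 1.33), Tdrd1 with shGas41-1 (1.22) and Piwil1, which encodes a piRNA-binding protein, with shGas41-2 (1.08). Of 17 piRNA genes tested in the EB series, 3 rose and 9 fell at day 6. The rise of Mael was thus not shared by most of the piRNA pathway.

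Genes that start meiosis or specify germ cells were mostly uncalled, as were most genes. In both lists the counts called up after KD lay near the shares of all genes, 7.90% with shGas41-1 and 3.96% with shGas41-2. Of 11 tested genes of meiotic entry and germ cell RNA binding, 1 was called with shGas41-1, Gm4969 (Meiosin, 1.92), and 0 with shGas41-2. Of these 11, 2 were called up and 3 down at EB day 6. Of 12 genes of primordial germ cell specification, Dppa3 alone was called with shGas41-1 (2.90), 0 were called with shGas41-2, and 2 were called up and 4 down at EB day 6. Both lists had medians between -0.30 and 0.02 in the KDs. Of 20 tested germline genes with promoters known for silencing by DNA methylation, 6 rose and 2 fell with shGas41-1, and 1 rose with shGas41-2. Tex19.1 rose with both (1.26 and 1.17). Dppa3, Brdt (1.50), Rhox9 (1.53) and Rhox6 (1.43) were called with shGas41-1, and Sohlh2, an oogenesis and spermatogonial transcription factor, fell by 1.75 on the log2 scale. Rhox genes are close copies of each other, between which reads may be split. At EB day 6, 15 of 19 genes of this list fell and none rose, with a median log2 fold change of -3.20.

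**Figure D5:**
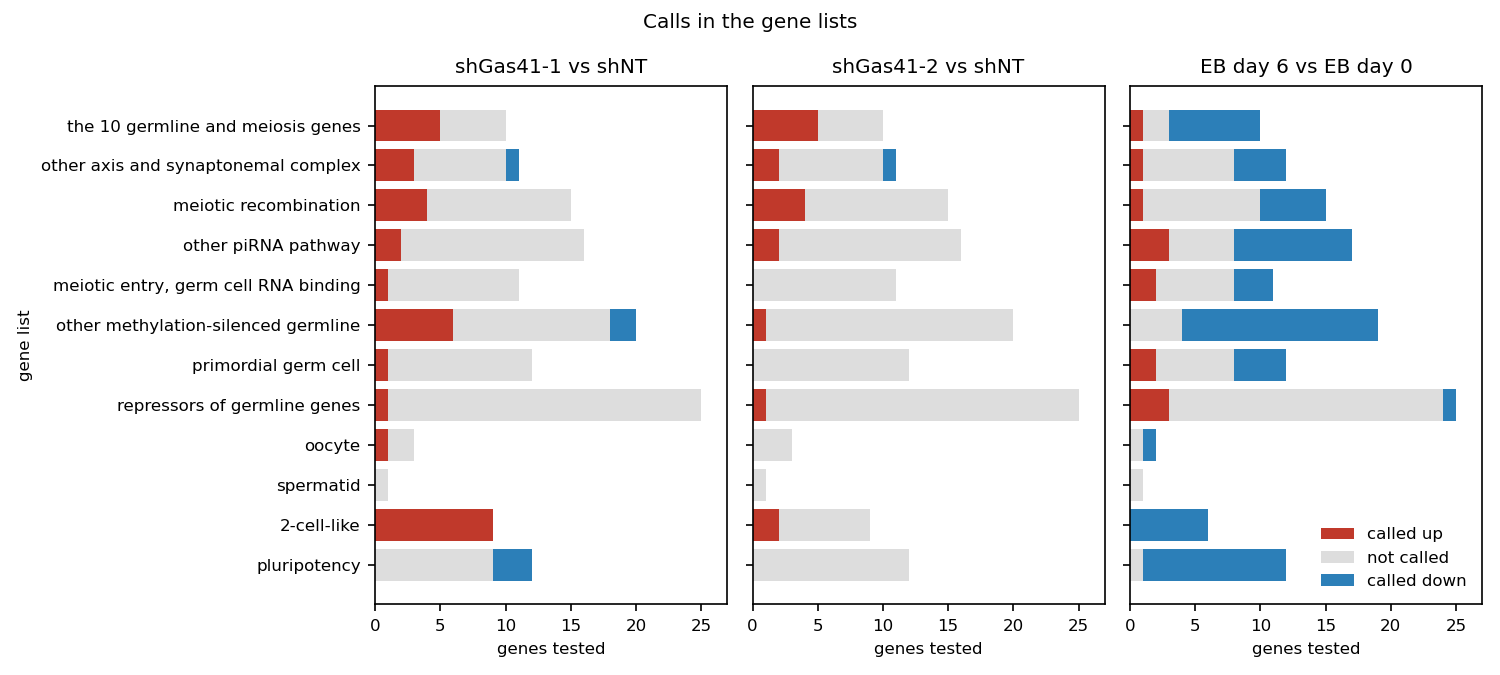
Number of genes called up (red), not called (grey) and called down (blue) in each gene list, with the number of genes tested on the x axis, for shGas41-1 against shNT, shGas41-2 against shNT and EB day 6 against EB day 0. The 10 germline and meiosis genes had 5 called up with each shRNA and 7 down at EB day 6, and the 2-cell-like list had 9 of 9 called up with shGas41-1 and 2 of 9 with shGas41-2, where 8 of 9 were called without the shNT 1 library.

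Markers of mature gametes gave no such level. The 9 spermatid markers in the tables summed to 2.03 to 2.69 CPM over the shNT and KD libraries. Most of this was Tssk6, at 1.89 to 2.47 CPM, so that the sum does not show whether the rarer markers changed. Of the 9, 1 passed the count filter and was not called by edgeR or DESeq2 (0 at an unadjusted p under 0.05). At 0 in every library of the group were 4 in shNT, 2 with shGas41-1 and 0 with shGas41-2. At 3 counts or fewer in every library were 5, 4 and 5, so that a change of these rare markers could not be tested. The 11 oocyte markers summed to 1.81 to 2.42 CPM in the same libraries, with Zp3, at 0.854 to 1.69 CPM, as the largest part. Of 3 tested, 1, the transcription factor gene Figla, was called with shGas41-1 (2.42) and 0 with shGas41-2. Of 2 oocyte markers tested at EB day 6, 1 was called down. Of 5 tested markers of testis somatic cells, Sox9 was called with shGas41-1 (2.50) and 0 with shGas41-2, and the list summed to 7.83 to 10.2 CPM in these libraries. Of these 5, 1 was called up and 2 down at EB day 6.

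The 25 tested genes of known repressors of germline genes were mostly uncalled after KD, as were most genes (7.90% called up with shGas41-1 and 3.96% with shGas41-2). Dnmt3l, a cofactor of the de novo DNA methyltransferases, rose by log2 fold changes of 2.17 (SE 0.20, FDR = 0.00187) and 1.85 (SE 0.16, FDR = 0.00145), and was the only gene of this list called with either shRNA. The methyltransferase genes gave values of -0.22 and -0.12 for Dnmt1, -0.73 (FDR = 0.0299) and -0.58 (FDR = 0.0727) for Dnmt3a and 0.27 and 0.24 for Dnmt3b. Of the PRC1.6 genes, those named here gave 0.24 and -0.07 for E2f6, -0.15 and -0.24 for Mga, -0.61 and -0.32 for L3mbtl2 and 0.33 and 0.31 for Pcgf6. None of these was called. The quasi-likelihood test gave an unadjusted p under 0.05 for 7 of the 25 genes with shGas41-1 and 12 with shGas41-2. Over all genes tested, it did so for 6405 of 18274 and 5209 of 18405. Uncalled genes of this list may thus have changed by less than 2-fold, and its median was -0.10 and -0.06. At EB day 6, 3 genes of this list were called up, among them Dnmt3b (3.49) and E2f6 (1.23), and 1 was called down, Dnmt3l (-1.70).

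Markers of other cell states moved beside the 10 genes. All 9 tested 2-cell-like markers rose with shGas41-1 and 2 of 9 with shGas41-2, with median log2 fold changes of 2.56 and 2.22. Without shNT 1, 9 of 9 rose with shGas41-1 and 8 of 9 with shGas41-2, with medians of 4.13 and 3.54. Their summed level was 489 to 875 CPM with shGas41-1 and 285 to 673 CPM with shGas41-2, against 33.3 to 273 CPM in shNT. It was 33.0 to 63.0 CPM at EB day 0 and 0.259 to 0.363 CPM at EB day 6, where 2 of the 9 were at 0 and all 6 that could be tested fell. The largest rises were those of Tdpoz4 (4.59 and 3.55) and Tdpoz3 (3.28 and 2.75), and these markers belong to families of close copies between which reads may be split. Within the shNT group, the library with the highest 2-cell-like sum also had the highest level of 9 of the 10 genes, all but Sycp1. The share of all genes that were highest in that library was not taken. Within shGas41-1, replicates 3 and 1 had the highest such sums, 875 and 829 CPM, against 489 CPM in replicate 2. Replicate 3 had the highest level of Mael, Stk31, Ddx4, Stag3 and Hormad1 and the lowest of Dazl and Smc1b. Slc25a31, Sycp1 and Sycp3 were in between. Replicate 2 had the lowest level of all of the 10 genes but Dazl and Smc1b. Within shGas41-2, the sum was 673 CPM in replicate 1 and 285 CPM in replicate 2. There replicate 1 had the higher level of each of the 10 genes. The shares of all genes with such orders were not taken either. The part of these markers in the rise of the 10 genes was not tested.

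Of the trophoblast markers, 2 of 7 rose and 1 fell with shGas41-1 and 1 of 8 rose with shGas41-2, led by Gata3 (4.30 and 3.26), and the list summed to 21.5 to 33.0 CPM in the KDs and 30.6 to 39.4 CPM in shNT. Of 7 endoderm markers, 2 rose with shGas41-1 (Gata6 by 1.76 and Cubn by 1.32) and 1 with shGas41-2 (Sox7 by 1.23), and the list summed to 6.85 to 11.1 CPM in the KDs and 5.05 to 5.95 CPM in shNT. Of 8 mesoderm markers, 2 fell with shGas41-1, Tbx6 (-1.42) and Eomes (just past 2-fold), and 0 were called with shGas41-2. Of 12 pluripotency genes, Tfcp2l1 (-1.55), Klf4 (-1.13) and Esrrb (-1.04) fell with shGas41-1 and 0 were called with shGas41-2. At EB day 6, by contrast, 8 of 8 mesoderm, 6 of 7 trophoblast and 5 of 7 endoderm markers rose, 1 endoderm marker fell, and 11 of 12 pluripotency genes fell. In the lists with 0 calls with shGas41-2, the quasi-likelihood test gave an unadjusted p under 0.05 for 3 of 11 meiotic entry, 7 of 12 primordial germ cell, 1 of 3 oocyte, 1 of 5 testis somatic, 3 of 8 mesoderm and 5 of 12 pluripotency genes, and DESeq2 called 0 in each of them. Leaving out shNT 1 changed the calls of several lists. With shGas41-1, Tex12 (FDR = 0.0898), Cubn (FDR = 0.0882) and Tbx6 (FDR = 0.0605) were no longer called, and the methylation list gained Cyct. With shGas41-2, that list had 5 genes called up in place of 1, adding Brdt, Dppa3 (1.36), Cyct and Taf7l, Dppa3 was also the 1 primordial germ cell gene called, and Gm4969 (1.88) was the 1 called gene of meiotic entry. Also with shGas41-2, the trophoblast list went from 1 to 3 called up, adding Cdx2 (2.27) and Elf5, the mesoderm list had Kdr up and Tbx6 (-1.42) down, and Tfcp2l1 (-1.01) was called down. Apart from the 2-cell-like markers, the other lists kept their counts with either shRNA. The fall of the germline and meiosis genes at EB day 6 thus went with the loss of pluripotency genes and the rise of lineage markers, and the part of either was not tested.

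For each of the 5 genes called with both shRNAs, the genes with the most similar profile were found among 15150 genes over the 12 libraries, by the root mean square difference in log2 CPM after each gene was centred on its mean. Smc1b was closest to Ddr2 (0.23), Osr2 (0.25) and Casc1 (0.34), and Mael to Casc4 (0.24), Dcaf17 (0.24) and Pts (0.25). Dazl was closest to Olfr153 (0.31), Osr2 (0.33) and Slc1a1 (0.34). Slc25a31 was closest to CN725425 (0.29), Tex19.1 (0.31) and Enox1 (0.34), and Stk31 to Spata22 (0.31), Spink3 (0.35) and Trav13-3 (0.36). Tex19.1 and Spata22 are themselves germline genes of the lists above, and none of the others is in a list used here.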

How the data were processed

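RNA-seq was measured in 12 libraries of J1 mESCs. The authors called bases with CASAVA 1.8.2 (submitters' processing notes), mapped reads with TopHat2 2.0.10 to mm9 and the mouse transcriptome and ran htseq-count, and the counts they deposited are raw. The deposited log2 fold changes, p-values and FDR are the authors' own edgeR comparisons and were not used. The control that labels name shCon is shNT here, and columns named ESC in the EB table were taken as EB day 0. ChIP-seq was not analysed here.

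Counts were tested in R 4.3.3 with edgeR 4.0.16 (filterByExpr with minimum count 10 and total 15, TMM, quasi-likelihood test, Benjamini-Hochberg adjustment). SEs were derived from the F statistic. Tables were joined by Ensembl identifier, and a gene missing from a table was taken as 0. The test was tried on simulated counts first. Alternatives were no filter, scaling by library size, DESeq2 1.42.0, a replicate block, single libraries left out, the FDR alone and 1 fit over 8 libraries. The gene lists were also tested without shNT 1, an alternative chosen after seeing the data. Exon lengths came from GENCODE vM1 (mm9).

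The 10 genes, the 16 gene lists and the tests were chosen with earlier results of these data known. From the other lists, genes called with either shRNA were named, at most 6 a list by the larger absolute log2 fold change, with 7 repressor genes in any case; Chpt1 was added after its values were seen.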

Additional observations from a re-analysis of the deposited data

Results flagged for a closer look

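For 9 of the 10 genes, the change after Gas41 knockdown differed from the change at EB day 6 by the test of the difference itself (edgeR's quasi-likelihood test over the 12 libraries). The log2 difference, the mean change over both shRNAs minus the change at EB day 6, was 5.64 for Stk31, 5.60 for Slc25a31, 5.23 for Dazl, 5.06 for Hormad1, 4.64 for Smc1b, 2.53 for Stag3, 2.25 for Ddx4, 2.25 for Mael and 1.78 for Sycp1. Over all 19684 genes tested, 17.6% were called above 0 in this difference. In each of the 9 genes all 5 knockdown libraries lay above the 3 shNT libraries and both EB day 6 libraries lay below both EB day 0 libraries. Over all genes tested, every knockdown library lay above every shNT library in 20.9% with shGas41-1 and 23.2% with shGas41-2. Both EB day 6 libraries lay below both EB day 0 libraries in 40.0%. No group had the 4 libraries needed for a test of single outlying libraries.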

How the results depend on the processing

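With shGas41-1, 5 of the 10 genes were called under every alternative but 3, namely the FDR alone (9 genes) and the fits without shNT 1 or without shGas41-1 replicate 2 (7 genes each), so that leaving out single libraries gave 5 to 7. With shGas41-2, leaving out single libraries gave 3 to 6 calls, with 3 calls without either shGas41-2 library, where Slc25a31 and Stk31 (FDR = 0.0587 and 0.0531) lost theirs, 4 without shNT 2 and 6 without shNT 1, and the other alternatives gave 5 or, by the FDR alone, 6. The EB comparison gave 7 to 9 calls when single libraries were left out and 8 or 9 otherwise, and the difference between the responses to knockdown and to EB differentiation was called for 9 or 10 genes. No gene of the 10 was called between the shRNAs under any of the alternatives run. No called log2 fold change changed its sign. The uncalled Sycp3 turned in sign when single libraries were left out, over a range of -0.088 to 0.41 with shGas41-1 and -0.78 to 0.54 with shGas41-2, and with shGas41-2 also with scaling by library size (-0.041) and the replicate block (-0.095). Between the shRNAs, uncalled differences turned in the same way, over ranges of -0.43 to 0.87 for Sycp3, -0.13 to 0.33 for Sycp1 and -0.099 to 0.37 for Hormad1.

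Same-numbered libraries did not deviate together between shNT and shGas41-1 (correlations of 0.03, 0.13 and -0.31). The correlation was 0.27 between shNT 1 and 2 and the shGas41-2 libraries, and 0.06 between EB day 0 and day 6. With 2 libraries a group, both same-numbered pairs must give the same value, so that each of these is a single number. With the replicate block, 5, 5 and 8 of the 10 genes were called in the 3 comparisons, 0 between the shRNAs, and 10 in the difference of responses, which added Sycp3 at -1.21. Over all genes, the block gave 1019 calls up with shGas41-1, against 1444 without it, and 1122 against 728 with shGas41-2. Depth limited Slc25a31 and Hormad1 most, with as few as 2 and 4 counts in a library, followed by Stk31 and Sycp3 with as few as 27 and 31.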
